A study of Mus musculus with 8 samples.

Results

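The genes described here are 10 regulators of pre-mRNA splicing that are known from striated muscle: the muscleblind proteins Mbnl1 and Mbnl2, the CELF proteins Celf1 and Celf2, the RNA-binding motif proteins Rbm20, Rbm24 and Rbm38, the kinase Srpk3, the polypyrimidine tract protein Ptbp1 and the quaking protein Qk. They were taken by gene name from 24341 genes listed in each table, and all 10 were found. Srpk3 is a kinase that phosphorylates splicing factors and does not bind RNA by a classical RNA-binding domain; the other 9 bind RNA. RNA was sequenced from the tibialis anterior, a fast muscle of the lower leg, of mice of 12 weeks on a chow diet, 1 library per animal and all labelled male. In 4 Carm1 knockout animals (Carm1 skm-/-) floxed Carm1 was combined with HSAcre Tg/0, in which Cre is expressed from the promoter of human skeletal actin. In 4 wildtype animals (Carm1 skm+/+, HSAcre 0/0) floxed Carm1 was present without Cre. The promoter drives Cre in muscle fibres, so other cells of the muscle keep Carm1, and the effect of Cre itself cannot be told apart from that of the deletion.

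Splicing regulators bind short motifs in introns and exons and decide which exons enter the mature mRNA. In muscle the MBNL proteins promote the adult pattern of many exons, CELF proteins oppose them on part of these exons, RBM20 and RBM24 act on exons of sarcomere genes, and PTBP1 represses muscle exons until differentiation. Carm1 encodes an arginine methyltransferase, PRMT4, which methylates histones and also proteins of the splicing machinery. The tables give 1 level per gene, so they show how much RNA of each regulator was present, and neither the use of exons nor the methylation of a protein.

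Values are FPKM, which count the fragments of a gene per kilobase of its transcript and per mapped fragment of the library, divided by a factor per library so that the typical gene has the same level in each, and are called scaled FPKM. Carm1 was lower in the knockout, at 18.0, 12.7, 17.2 and 13.8 scaled FPKM in knockouts 1 to 4 and 27.1, 37.4, 27.3 and 30.1 scaled FPKM in wildtypes 1 to 4. The groups did not overlap, the log2 difference was -0.94 and the 2-sided exact permutation p was 0.0286, the smallest that 70 assignments allow. Knockouts 2 and 4 and wildtype 1 held between 19.6 and 22.9 FPKM of Xist, the RNA of the inactive X chromosome, and at most 0.112 FPKM of the Y-linked gene Eif2s3y, which goes against the label male. The other 5 libraries held at most 0.0662 FPKM of Xist and between 42.3 and 58.1 FPKM of Eif2s3y. The same 3 libraries held 782 to 1442 scaled FPKM of Myh2, the type IIa myosin, against 119 to 173 in the other 5. Results are therefore also given from a fit that has Xist, present or absent, as a second term, called the Xist-adjusted fit. They are also given from the 5 libraries that lack Xist, which are knockouts 1 and 3 and wildtypes 2 to 4. No table gives read depth; judged by the steps between low values, the libraries had 80.6% to 100% of the depth of the deepest.

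The promoters of 4 members are shown because the results below turn on these genes: Rbm38 and its paralog Rbm24, where Rbm38 had the smallest p of all members, and Qk and Mbnl2, the 2 members that varied most within genotypes. Each is the 250 bases before the RefSeq start site (GRCm38.p6, the assembly of mm10), which coincides with the edge of the gene in the deposited tables. In GENCODE release M21 Rbm38 begins at 173020498 and Qk, on the minus strand, at 10319854. These starts lie upstream of the windows, so the windows of Rbm38 and Qk lie inside the gene as GENCODE lists it. Capitals mark E-boxes, CANNTG, the motif of myogenic factors such as MyoD.
Rbm38, chr2:173021652-173021901, plus strand: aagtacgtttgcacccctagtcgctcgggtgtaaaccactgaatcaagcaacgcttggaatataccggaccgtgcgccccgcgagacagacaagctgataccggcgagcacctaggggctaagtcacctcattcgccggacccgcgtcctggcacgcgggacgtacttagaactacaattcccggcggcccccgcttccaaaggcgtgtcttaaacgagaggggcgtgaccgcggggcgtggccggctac
Rbm24, chr13:46418050-46418299, plus strand: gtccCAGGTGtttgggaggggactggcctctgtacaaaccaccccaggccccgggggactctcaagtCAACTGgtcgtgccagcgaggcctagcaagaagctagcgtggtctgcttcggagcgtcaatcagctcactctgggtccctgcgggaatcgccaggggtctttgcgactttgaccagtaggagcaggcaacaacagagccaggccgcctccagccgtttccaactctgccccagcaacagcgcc
Qk, chr17:10319362-10319611, minus strand: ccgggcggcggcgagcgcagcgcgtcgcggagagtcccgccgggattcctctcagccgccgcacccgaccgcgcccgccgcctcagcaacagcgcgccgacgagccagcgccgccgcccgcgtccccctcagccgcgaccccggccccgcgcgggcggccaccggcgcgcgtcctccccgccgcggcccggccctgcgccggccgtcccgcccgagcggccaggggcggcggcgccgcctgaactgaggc
Mbnl2, chr14:120275419-120275668, plus strand: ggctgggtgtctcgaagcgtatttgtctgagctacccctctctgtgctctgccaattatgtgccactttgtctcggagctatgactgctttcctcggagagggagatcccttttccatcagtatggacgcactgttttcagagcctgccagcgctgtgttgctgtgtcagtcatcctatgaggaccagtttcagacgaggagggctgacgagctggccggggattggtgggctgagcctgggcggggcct
In this window Rbm24 held 2 E-boxes, starting 246 and 183 bases before the start site, and the other 3 held 0, where 66.2% of 32851 promoter windows held at least 1. The motif reads the same on both strands. TATAAA, searched on both strands, was in none of the 4 and in 12.4% of all windows, and the element bound by MEF2 factors was in none of the 4 and in 2.92% of all. GC content was 84.8% for Qk, 61.6% for Rbm38, 62.4% for Rbm24 and 57.2% for Mbnl2, against a median of 52.4%. A match or its lack describes these letters and says nothing of binding.

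All 10 regulators were expressed in the muscle, and they spanned a wide range of levels. Their mean over the 8 libraries is given in scaled FPKM, which is a level per transcript length. It was 111.9 for Rbm38, 69.4 for Mbnl1, 62.3 for Rbm24, 44.3 for Mbnl2 and 33.0 for Qk. For the others it was 27.5 for Srpk3, 22.0 for Rbm20, 17.1 for Celf1, 9.51 for Ptbp1 and 5.88 for Celf2. The median gene tested stood at 8.11. Rbm38 lay above Mbnl1, Celf1 above Ptbp1, and Ptbp1 above Celf2 in all 8 libraries with no overlap of their ranges. The ranges of the other 6 neighbouring pairs overlapped, although Mbnl2 was above Qk and Srpk3 above Rbm20 within each of the 8 libraries. Mbnl1 exceeded Rbm24 in 7 libraries, Rbm24 exceeded Mbnl2 in 7, Rbm20 exceeded Celf1 in 7 and Qk exceeded Srpk3 in 6.

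**Figure D1:**
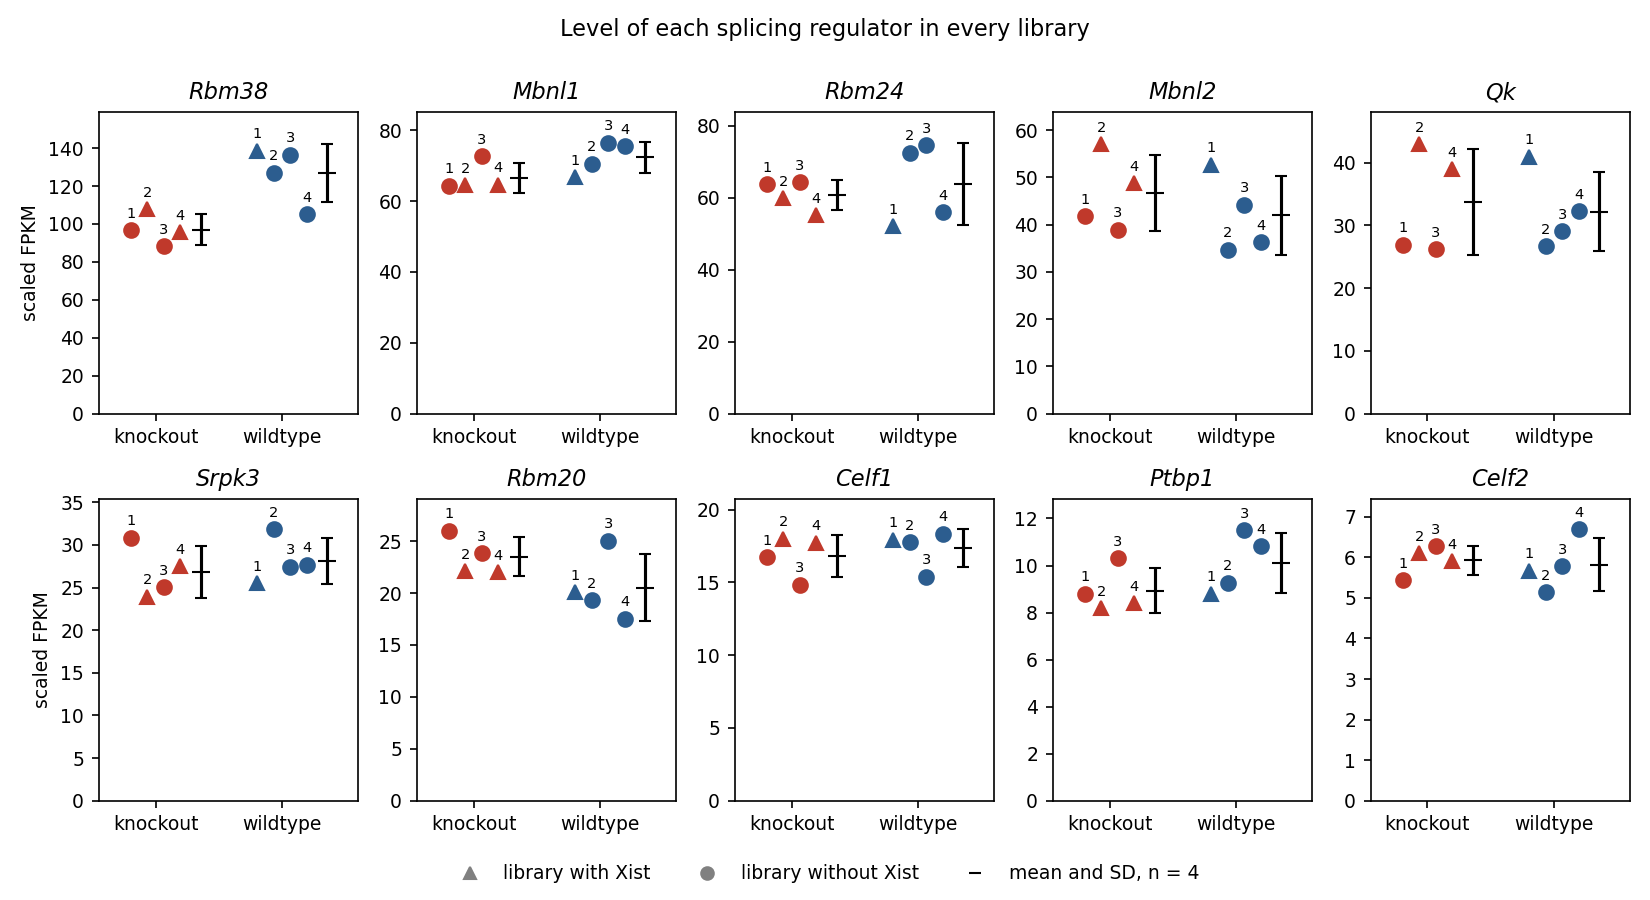
Scaled FPKM of the 10 regulators (vertical axes, each from 0) in 4 knockout libraries (red, left) and 4 wildtype libraries (blue, right), numbered by replicate, with triangles for the 3 libraries that held Xist and bars for mean and SD. The groups overlap for every gene, Rbm38 is the gene whose means lie farthest apart relative to their spread, and the triangles lie above the circles for Qk and Mbnl2.

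None of the 10 regulators passed the test between genotypes. With limma across 11096 genes, 40 genes (0.36%) passed at a Benjamini-Hochberg adjusted p under 0.05, 22 higher and 18 lower in the knockout, and 0 of the 10 regulators were among them. Without scaling 36 were higher and 13 lower, and with trends on length, GC content and level removed 38 were higher and 19 lower. At an unadjusted p under 0.05 there was 1 regulator, Rbm38, where 13.1% of all tested genes lay below that value. In 0 of the 10 did the knockout and wildtype values lie apart without overlap, where 8.31% of tested genes did. The differences were positive for 4 and negative for 6 regulators. Their median was -0.05 on the log2 scale, against 0.00 for all tested genes (n = 4 libraries per genotype unless libraries are left out). Without scaling 7 were positive and 3 negative, with a median of 0.04 against 0.07 for all tested genes. With quantile normalization 5 were positive and 5 negative, and with the trends removed 3 were positive and 7 negative. In the Xist-adjusted fit 4 were positive and 6 negative. In the 5 libraries without Xist 2 were positive and 8 negative, with a median of -0.09 against -0.01 for all tested genes. The 95% intervals of the 10 differences spanned 0.649 to 1.43 times the wildtype level on the fitted scale. A p that misses the threshold leaves differences within those intervals possible.

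**Figure D2:**
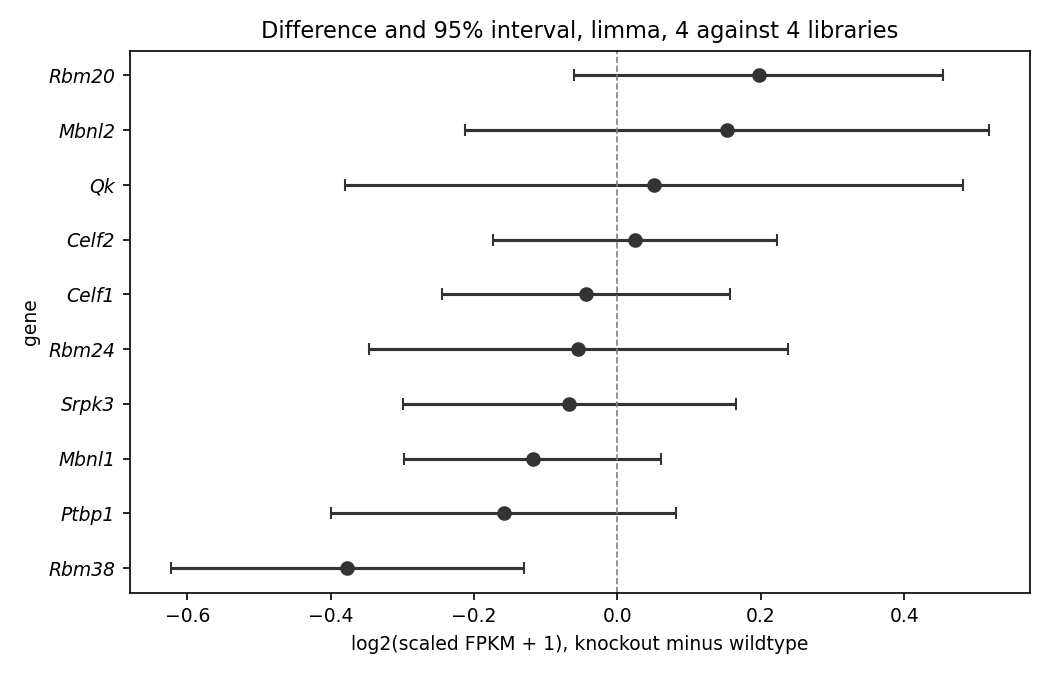
Difference in log2(scaled FPKM + 1) between knockout and wildtype (horizontal axis) with its 95% interval from limma for each regulator, n = 4 libraries per genotype. The interval of Rbm38, from -0.62 to -0.13, is the only 1 of the 10 that does not hold 0, and Rbm38 did not pass after adjustment over all genes.

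Rbm38 stabilises or destabilises target mRNAs, among them that of the cell cycle inhibitor p21, and takes part in muscle differentiation. The gene lies at chr2:173021902-173034731 (mm10, as are all gene positions below). It stood at 96.7, 107.8, 88.2 and 95.5 scaled FPKM in knockouts 1 to 4, against 138.6, 127.1, 136.4 and 105.0 in wildtypes 1 to 4. All knockouts but knockout 2 were below every wildtype, and knockout 2 was above wildtype 4. The means were 97.1 ± 8.07 in knockouts and 126.8 ± 15.3 in wildtypes (SD, n = 4 each), so the knockout mean was 76.6% of the wildtype mean. The log2 difference was -0.38 (SE 0.11), with a limma p of 0.00722 and an adjusted p of 0.189. In the Xist-adjusted fit it was -0.42 (limma adjusted p = 0.0822), a fit in which 2.01% of all tested genes and 0 of the 10 regulators passed. In the 5 libraries without Xist it was -0.40 (limma adjusted p = 0.348), and there 0.027% of tested genes and 0 of the 10 passed. Its paralog Rbm24 (chr13:46418300-46431099), which is required for muscle splicing in mice, stood at 63.7, 59.8, 64.3 and 55.2 scaled FPKM in knockouts and 52.1, 72.4, 74.6 and 56.0 in wildtypes. The 4 knockout values of Rbm24 lie within the wildtype range, with a difference of -0.05 (SE 0.13, limma adjusted p = 0.892). The ratio of Rbm38 to Rbm24 was 1.52, 1.80, 1.37 and 1.73 in knockouts and 2.66, 1.75, 1.83 and 1.88 in wildtypes. Knockout 2 lay above wildtype 2 in this ratio.

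Of 7081 other genes that averaged 5 scaled FPKM or more, those whose log2 levels followed Rbm38 most closely over the 8 libraries were Slc35a2, a nucleotide sugar transporter gene, Rogdi, and Nop56, of the box C/D small nucleolar ribonucleoprotein. Their Pearson r with Rbm38 was 0.971, 0.965 and 0.960, as a description over libraries that share their scaling. Nop56 averaged 15.0 scaled FPKM in knockouts and 18.2 in wildtypes, with a log2 difference of -0.26 and an adjusted p of 0.183 in limma. Slc35a2 averaged 4.998 in knockouts and 5.54 in wildtypes, and Rogdi 5.94 in knockouts and 6.82 in wildtypes. As these genes were picked by their correlation with Rbm38 over the same 8 libraries, their lower knockout means follow from that choice.

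RBM20 represses exons of titin in the heart and, when mutated, causes cardiomyopathy in humans. Rbm20 (chr19:53677306-53867080) stood at 26.0, 22.1, 23.9 and 22.0 scaled FPKM in knockouts and 20.1, 19.3, 25.1 and 17.5 in wildtypes. All 4 knockouts were above wildtypes 1, 2 and 4, and wildtype 3 was above all knockouts but knockout 1. The difference was 0.20 (SE 0.11, limma adjusted p = 0.501), and it was 0.22 in the Xist-adjusted fit (adjusted p = 0.331). The gene of its best known target, Ttn, the giant spring protein of the sarcomere, had a mean of 122.8 scaled FPKM in knockouts and 118.2 in wildtypes, with a log2 difference of 0.05 (adjusted p = 0.895 in limma).

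The muscleblind genes encode zinc-finger proteins that are trapped by expanded repeats in myotonic dystrophy. Mbnl1 (chr3:60472830-60629748) stood at 64.3, 64.5, 72.7 and 64.7 scaled FPKM in knockouts and 66.8, 70.6, 76.5 and 75.5 in wildtypes. Knockouts 1, 2 and 4 were below every wildtype and knockout 3 lay inside the wildtype range, with a difference of -0.12 (SE 0.08, limma adjusted p = 0.563). Mbnl1 was also the steadiest member within genotypes, with a pooled SD of 0.09 on the log2 scale, at percentile 11.4 of all tested genes. Mbnl2 (chr14:120275669-120431698) stood at 41.8, 57.0, 38.9 and 48.8 scaled FPKM in knockouts and 52.7, 34.7, 44.2 and 36.3 in wildtypes, with a difference of 0.15 (SE 0.16, adjusted p = 0.743). Its within-genotype SD of 0.26 was at percentile 78.7. In the Xist-adjusted fit the difference of Mbnl2 was 0.05 (limma adjusted p = 0.820), and in the 5 libraries without Xist it was 0.08 (limma adjusted p = 0.831). The ratio of Mbnl2 to Mbnl1 was between 0.535 and 0.884 in knockouts and between 0.481 and 0.790 in wildtypes.

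The CELF genes encode proteins with 3 RNA recognition motifs that act on splicing and on mRNA decay. Celf1 (chr2:90940397-91019497) stood at 16.7, 18.0, 14.8 and 17.7 scaled FPKM in knockouts and 17.9, 17.8, 15.4 and 18.3 in wildtypes. Celf2 (chr2:6539699-7396198) stood at 5.43, 6.10, 6.28 and 5.91 scaled FPKM in knockouts and 5.15 to 6.70 in wildtypes. The groups overlapped almost fully for both genes, with differences of -0.04 (SE 0.09, limma adjusted p = 0.873) and 0.02 (SE 0.09, adjusted p = 0.929). The 95% interval ran from 0.844 to 1.116 times the wildtype level for Celf1 and from 0.887 to 1.17 times for Celf2 on the fitted scale. A listed gene, 5031426D15Rik, overlaps Celf2, so its value is less certain.

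SRPK3 is a muscle kinase that phosphorylates the arginine-serine domains of splicing factors, and its gene lies on the X chromosome. Srpk3 (chrX:73774422-73778924) stood at 30.9, 23.9, 25.1 and 27.5 scaled FPKM in knockouts and 25.5, 31.8, 27.5 and 27.7 in wildtypes, with a difference of -0.07 (SE 0.10, limma adjusted p = 0.830). It ranged from 23.9 to 27.5 in the 3 libraries with Xist and from 25.1 to 31.8 in the 5 without, which overlap. Its relative Srpk1 stood at 7.999, 8.96, 8.05 and 7.55 scaled FPKM in knockouts and between 7.05 and 7.20 in wildtypes. The groups did not overlap for Srpk1, and its difference of 0.17 (SE 0.07) had an adjusted p of 0.365 in limma.

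PTBP1 represses muscle-specific exons, and its RNA is known to decline as myoblasts differentiate. Ptbp1 stood at 8.80, 8.19, 10.3 and 8.39 scaled FPKM in knockouts and 8.79, 9.26, 11.5 and 10.8 in wildtypes. Knockouts 2 and 4 were below every wildtype, and the difference was -0.16 (SE 0.11, limma adjusted p = 0.563). The deposited row of Ptbp1 spans chr10:79697305-80369637 (mm10), which is 672333 bases and touches 48 other listed genes, while the gene in GENCODE release M21 spans 10345 bases, so how fragments were shared among these genes bears on its value and was not tested. Ptbp2, a paralog that Ptbp1 represses in non-neuronal cells, stood between 6.34 and 7.78 scaled FPKM in knockouts and between 5.72 and 7.36 in wildtypes.

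Qk (chr17:10206471-10319361), which encodes a STAR-family protein that binds ACUAA-type motifs and acts on muscle exons, varied most among the 10 within genotypes. It stood at 27.0, 42.9, 26.2 and 38.9 scaled FPKM in knockouts and 40.9, 26.7, 29.0 and 32.2 in wildtypes. The high libraries were knockout 2, knockout 4 and wildtype 1, the 3 that held Xist and much Myh2. Its difference was 0.05 (SE 0.19, limma adjusted p = 0.933), its within-genotype SD of 0.31 was at percentile 86.2, and in the Xist-adjusted fit the difference was -0.09 with an SE of 0.08 (adjusted p = 0.603). Without knockouts 2 and 4 together it was -0.25 (SE 0.17, adjusted p = 0.568).

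Of all tested genes 20.7% had no overlap between the 3 libraries with Xist and the 5 without, and 3 of the 10 regulators had none, a share near that background and no result about the regulators. Qk lay between 38.9 and 42.9 scaled FPKM in the 3 libraries with Xist and between 26.2 and 32.2 in the 5 without. Mbnl2 lay between 48.8 and 57.0 with Xist and between 34.7 and 44.2 without, and Ptbp1 between 8.19 and 8.79 with Xist and between 8.80 and 11.5 without. The margin for Ptbp1 was that between 8.79 in wildtype 1 and 8.80 in knockout 1. The arrangement was read from the data and is given without a test, and Xist, Myh2 and whatever else sets these animals apart cannot be told apart.

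**Figure D3:**
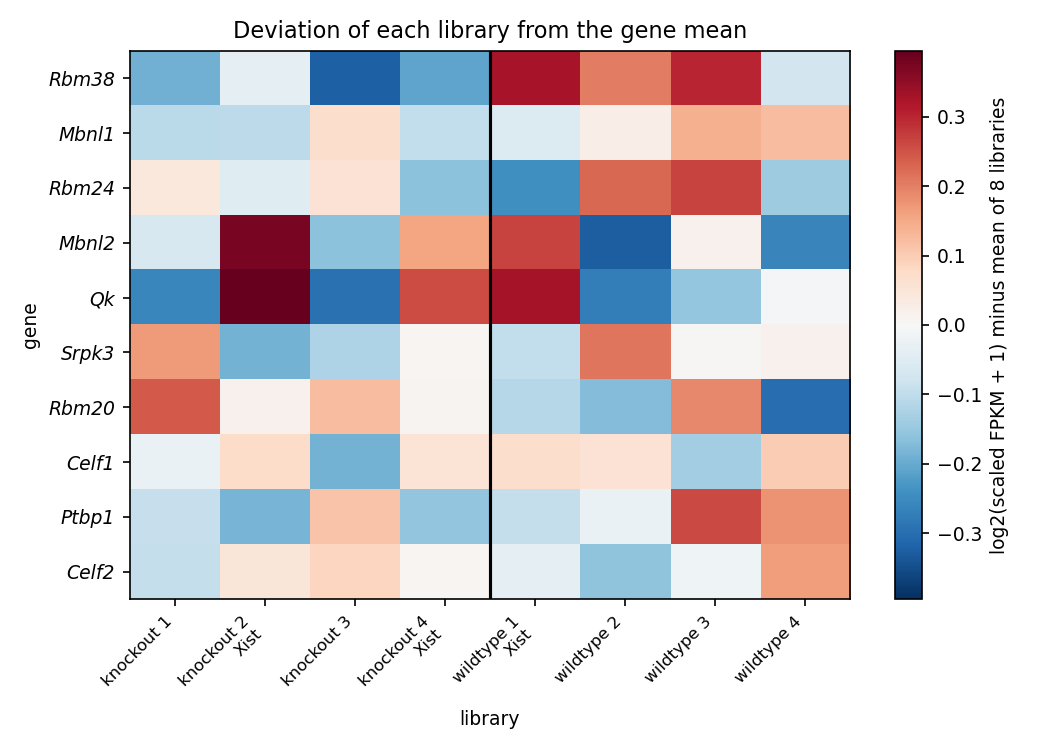
Deviation of log2(scaled FPKM + 1) from the mean of the 8 libraries (colour, red above and blue below) for the 10 regulators (rows) in knockouts 1 to 4 and wildtypes 1 to 4 (columns). Qk and Mbnl2 are red in knockout 2, knockout 4 and wildtype 1, the columns marked Xist, while Rbm38 is blue in all 4 knockouts and in wildtype 4.

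Several relatives of these families were near absent from the muscle. Of 15 relatives 8 were tested, and the other 7, Mbnl3, Celf3, Celf4, Celf5, Celf6, Rbfox3 and Khdrbs2, were below 1 scaled FPKM in every library. Rbfox1, which binds UGCAUG and acts on muscle exons, stood between 43.2 and 64.6 scaled FPKM in knockouts and between 45.6 and 64.3 in wildtypes. Of the 8 tested, 0 passed limma, 2 had an unadjusted p under 0.05 and the median difference was -0.01. Those 2 were Srpk1, given above, and Khdrbs3, also called SLM-2. Khdrbs3 stood at 7.59, 15.5, 12.0 and 15.5 scaled FPKM in knockouts and 10.5, 6.57, 8.20 and 7.20 in wildtypes. Its difference was 0.55 (SE 0.22, limma adjusted p = 0.334). The highest knockouts, 2 and 4, and the highest wildtype, 1, were the libraries with Xist. The difference was 0.41 in the Xist-adjusted fit (limma adjusted p = 0.164) and 0.35 in the 5 libraries without Xist (adjusted p = 0.512). Without knockouts 2 and 4 together it was 0.23 (limma adjusted p = 0.678).

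The other splicing genes gave the same count of 0 passing. SR proteins, which bind exonic enhancers, had 0 of 12 tested genes past limma's threshold and 0 at an unadjusted p under 0.05, with a median log2 difference of 0.01. The 2 of them with the smallest p were Srsf7, with a log2 difference of 0.17 (limma adjusted p = 0.489), and Srsf1, with a log2 difference of 0.20 (limma adjusted p = 0.635). Without scaling 11 of the 12 SR protein genes had positive differences, against 7 with it. In the Xist-adjusted fit 11 were positive and 1 negative, with a median of 0.07. There 0 passed and 3 had an unadjusted limma p under 0.05, where 18.6% of all tested genes had such a p. In the 5 libraries without Xist 10 were positive and 2 negative. The kinases of SR proteins had 0 of 6 passing and 0 at an unadjusted p under 0.05. Their median was 0.14, with 5 of 6 differences positive. The log2 difference was 0.33 for Prpf4b and 0.23 for Clk1 (limma adjusted p = 0.424 and 0.659). In the Xist-adjusted fit 0 of the kinases passed and 3 had an unadjusted limma p under 0.05. All 6 were positive there, with a median of 0.25, and in the 5 libraries without Xist 5 were positive and 1 negative. The hnRNP genes, whose proteins often silence exons, had 0 of 23, 3 at an unadjusted p under 0.05 and a median of 0.00. Hnrnpa3 stood at 9.88, 9.02, 9.30 and 7.87 scaled FPKM in knockouts and 5.57, 7.68, 5.73 and 5.997 in wildtypes, with no overlap and a difference of 0.47 (SE 0.11, limma adjusted p = 0.118). Hnrnph3 averaged 14.7 in knockouts and 10.9 in wildtypes, also with no overlap, with a difference of 0.39 (SE 0.14, adjusted p = 0.284). In the Xist-adjusted fit both passed limma (adjusted p = 0.0431 for Hnrnpa3 and 0.0211 for Hnrnph3). They were the 2 of 23 that did, where 2.01% of all genes passed. In the 5 libraries without Xist neither passed, where 0.027% of all genes did. Their differences there were 0.51 for Hnrnpa3 and 0.52 for Hnrnph3 (limma adjusted p = 0.269 and 0.164). The third hnRNP gene at an unadjusted p under 0.05, without the Xist term, was Hnrnpa0, lower in each knockout than in every wildtype. Its difference was -0.16 (SE 0.07, limma adjusted p = 0.374).

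Genes of the core spliceosome had 0 of 37 past the threshold, 2 at an unadjusted p under 0.05 and a median of -0.06, with 26 differences negative and 11 positive. That majority turned without scaling, where 16 were negative and 21 positive with a median of 0.02. Snrpb, the gene of the Sm proteins B and B' at the core of the small nuclear ribonucleoproteins, stood at 132.8, 114.2, 148.3 and 119.8 scaled FPKM in knockouts and 151.1, 177.8, 180.3 and 163.8 in wildtypes. Every knockout was below every wildtype, with a difference of -0.39 (SE 0.10, limma adjusted p = 0.172, and 0.0622 in the Xist-adjusted fit). Eftud2, a GTPase of the U5 particle, stood at -0.16 (adjusted p = 0.365), with no overlap. Among RNA-processing proteins known as CARM1 substrates, 0 of 6 tested genes passed, 2 had an unadjusted p under 0.05, and all 6 differences were negative (5 of 6 without scaling), with a median of -0.17 against 0.00 for all tested genes. Among them were Snrpb and Snrpc, which are also in the spliceosome list, and the 6 differences ran from -0.39 to -0.03. Pabpc1, the poly(A)-binding protein gene, stood at -0.27 (limma adjusted p = 0.365), with overlap between genotypes. Pabpc1 lay between 22.8 and 24.6 scaled FPKM in the 3 libraries with Xist and between 25.6 and 36.1 in the 5 without. Snrpc, Sf3b4 and Elavl1 stood at -0.18, -0.15 and -0.14 on the log2 scale. Elavl4 was below 1 scaled FPKM in every library.

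**Figure D4:**
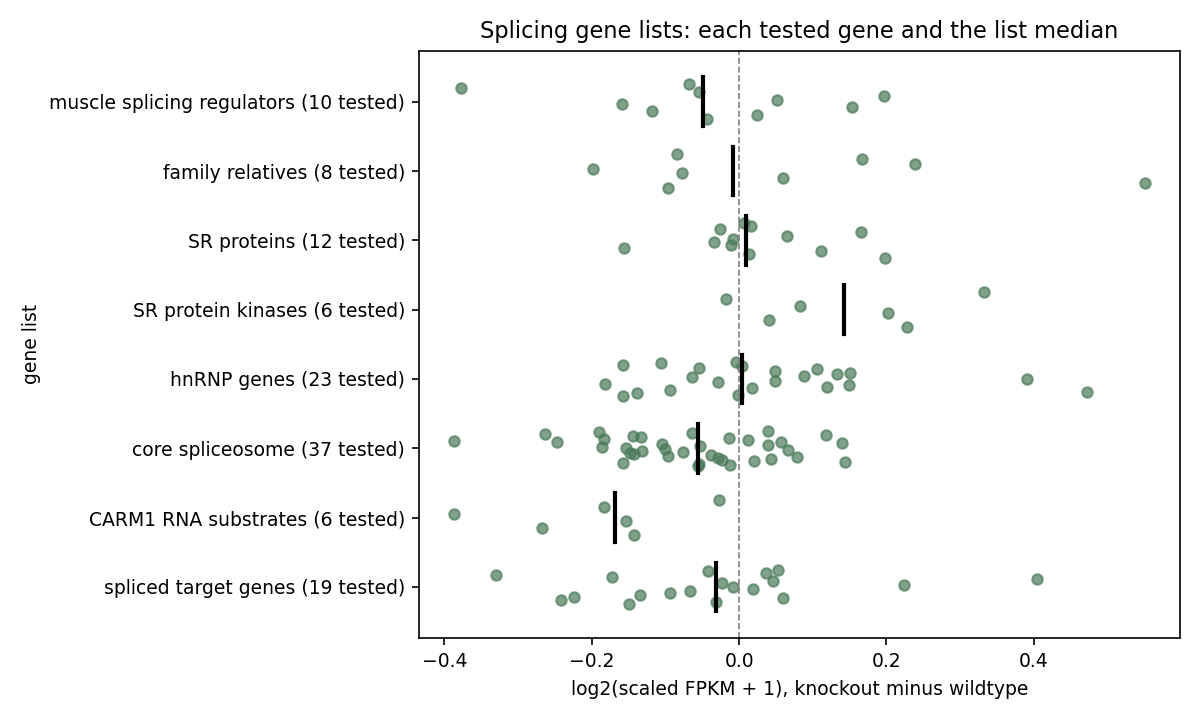
Difference in log2(scaled FPKM + 1) between knockout and wildtype (horizontal axis) for each tested gene (points) and the median (bar) of 8 lists (rows). The medians lie between -0.17 for CARM1 RNA substrates and 0.14 for SR protein kinases, and no gene drawn passed the test over all genes.

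Genes whose exons the regulators are known to control showed no call in total RNA. Of 24 such genes 19 were tested, 0 passed limma, 1 had an unadjusted p under 0.05 and the median difference was -0.03, and 0.06 without scaling. Atp2a1, Ldb3, Tnnt3 and Tpm1 were left out because the deposited status of at least 1 library was not OK, and Ryr2 was below 1 scaled FPKM in every library. Cacna1s, the voltage sensor of the muscle calcium channel, averaged 128.9 scaled FPKM in knockouts and 152.5 in wildtypes, with a difference of -0.24 (SE 0.09, adjusted p = 0.318). Pdlim3, a Z-disc protein gene, averaged 406.0 in knockouts and 303.6 in wildtypes, with 0.40 (SE 0.18, adjusted p = 0.390). Clcn1, the chloride channel gene whose splicing depends on Mbnl1, averaged 46.3 in knockouts and 48.8 in wildtypes (log2 difference -0.07, adjusted p = 0.870).

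In a whole muscle, fewer cells of a type and less RNA per cell cannot be told apart, for any of the 10 regulators. Qk, Ptbp1, Celf2 and Mbnl1 are examples that are also expressed outside muscle fibres. All 8 markers of fibro-adipogenic cells, all 8 of endothelium and all 6 of smooth muscle had negative differences, with medians of -0.16, -0.18 and -0.36, and 0 of these 22 markers passed limma (5 at an unadjusted p under 0.05). Without scaling 7 of 8, 7 of 8 and 6 of 6 were negative. Their summed levels overlapped between genotypes, at 343 to 503 scaled FPKM in knockouts and 380 to 663 in wildtypes for fibro-adipogenic cells. For endothelium the sums were 211 to 270 in knockouts and 243 to 293 in wildtypes, and for smooth muscle 220 to 265 in knockouts and 233 to 358 in wildtypes. Of 12 markers of muscle fibres 6 were not tested, namely Acta1, Ckm, Tnnt3, Myh1, Myh4 and Myh7. For 5 of these the deposited status of at least 1 library was not OK. Of the 6 tested 0 passed, with 3 differences positive and 3 negative, from -0.59 to 0.90 with a median of -0.04. The sum over muscle fibre markers of OK status overlapped between genotypes, at 34193 to 51779 scaled FPKM in knockouts and 51283 to 74735 in wildtypes. The lowest of the 6 differences was that of Mylpf, a fast myosin light chain gene (log2 difference -0.59, limma adjusted p = 0.203). Mylpf lay between 14635 and 19991 scaled FPKM in knockouts and between 23250 and 35720 in wildtypes, without overlap. The highest was that of Myh2, whose level was high in the libraries with Xist, which are knockouts 2 and 4 and wildtype 1. The 5 lymphocyte markers summed to 2.86 to 8.999 scaled FPKM in knockouts and 1.45 to 2.21 in wildtypes, without overlap, and all but Cd3e were below 1 in every library. Cd3e, the gene of a T cell receptor subunit, stood at 8.32, 2.23, 5.09 and 4.43 scaled FPKM in knockouts and 1.13, 1.45, 0.961 and 1.27 in wildtypes, without overlap. Its log2 difference was 1.36 (SE 0.27, limma adjusted p = 0.0869), and it passed in the Xist-adjusted fit at 1.48 (adjusted p = 0.0304). In the 5 libraries without Xist the difference of Cd3e was 1.76, and it did not pass. The sums of macrophage, adipocyte, Schwann cell, tendon, satellite cell and blood markers overlapped between genotypes. Their part in the values of the regulators was not tested.

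Across the settings tried, the directions of Rbm38, Rbm20, Mbnl1 and Ptbp1 held and those of the other 6 did not all hold. Rbm38 lay between -0.46 and -0.28 and Rbm20 between 0.13 and 0.29 on the log2 scale over 19 alternatives. None of the 10 regulators passed under any of the 19, and the smallest adjusted p among them was 0.0822, for Rbm38 in the Xist-adjusted fit.

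**Figure D5:**
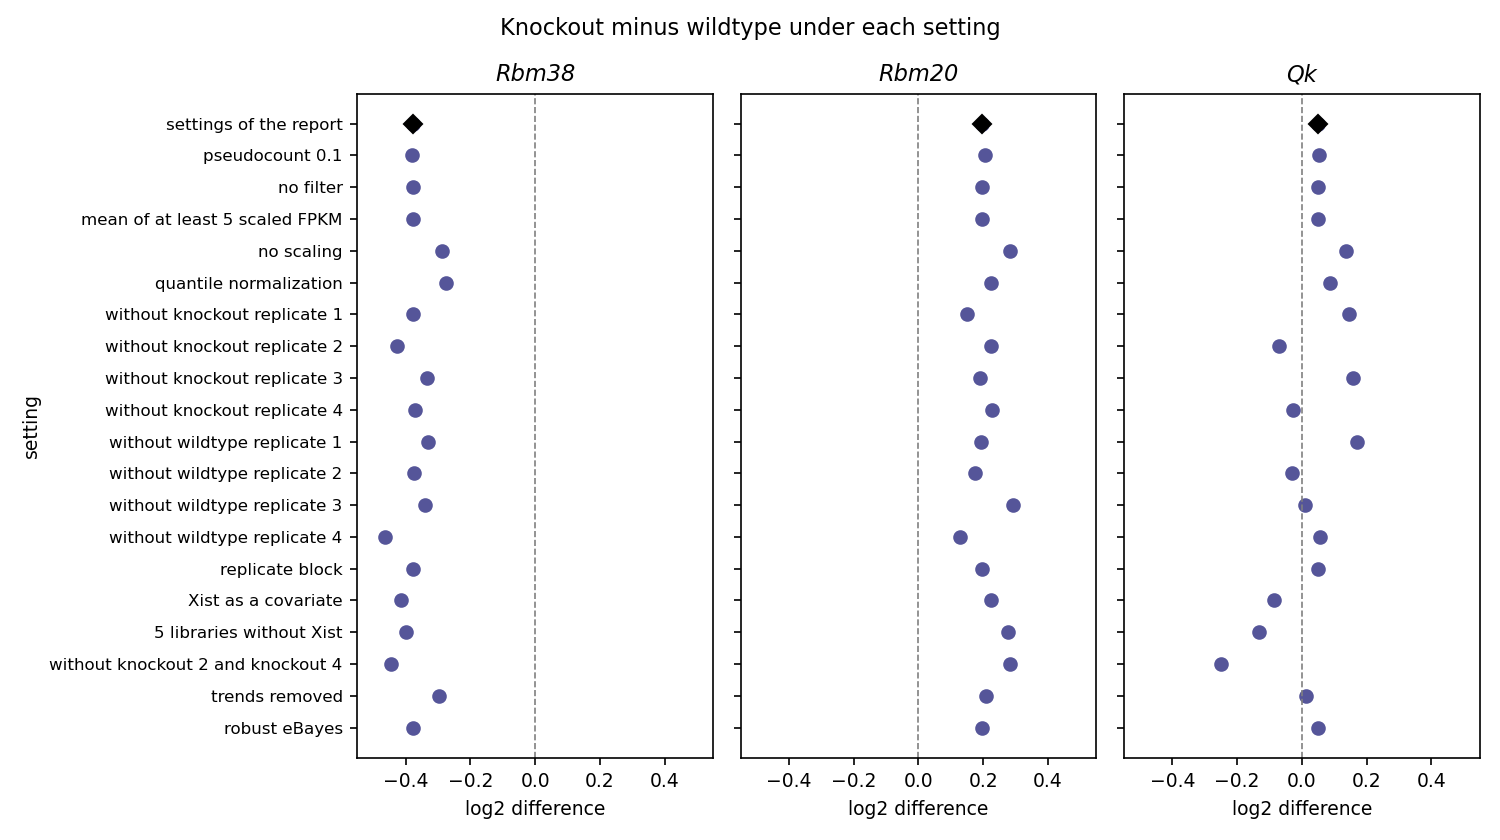
Log2 difference between knockout and wildtype (horizontal axes) of Rbm38, Rbm20 and Qk under the settings of the report (black diamond) and 19 alternatives (circles), by setting on the vertical axis. All values of Rbm38 lie below 0 and all of Rbm20 above it, while those of Qk run from -0.25 to 0.17.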

How the data were processed

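Muscle RNA was prepared with Trizol and sequenced from TruSeq RNA libraries, per the labels' protocols. STAR, Cufflinks and mm10 are named in the submitters' processing notes, without versions or an annotation. The authors deposited FPKM, 1 Cufflinks gene table per library per the file headers. They are not counts, so no count model was used, and read depth is unknown. The kit is not stated to mark strand. Values below 0.15 FPKM gave the relative depth of the libraries.

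The 23 genes whose status was not OK in some library were left out. Each library was divided by a median-of-ratios factor, 0.904 to 1.07, taken from genes that reached 1 FPKM everywhere. Genes that reached 1 scaled FPKM in 4 or more libraries were tested on log2(scaled FPKM + 1), which understates changes of low genes, with limma 3.58.1 in R 4.3.3 (eBayes with a trend) and Benjamini-Hochberg adjustment over all of them, threshold 0.05. The script was tested on simulated data. Carm1 was tested by exact permutation. The 4 animals per genotype are separate biological replicates per the labels. The members and lists were chosen with earlier results of these data known. Named are Carm1, the members and the 2 smallest p per other list (up to 3 per direction where genes passed). Also named are the 3 genes most correlated with the member of smallest p. Rbfox1, Ttn, Clcn1, Ptbp2, Mylpf, Cd3e, Snrpc, Sf3b4, Elavl1 and Hnrnpa0 were added after their values were seen. The value of 1 listed gene is not reported here. Other steps used scipy 1.17.1, pandas 2.3.3 and numpy 2.4.6 in Python 3.11.15, and figures matplotlib 3.10.9. The closing section gives the alternatives.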

Additional observations from a re-analysis of the deposited data

Results flagged for a closer look

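Of 54 groups of 4 libraries examined, for 27 genes, 1 held a library far from the others, where chance flags about 1 in 20. Mbnl1 stood at 72.7 scaled FPKM in knockout 3, while knockouts 1, 2 and 4 stood at 64.3 to 64.7, a gap of 0.962 of the range of the group.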

How the results depend on the processing

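Of 190 values of the 10 regulators under 19 alternatives, 171 kept their direction and 19 turned, and none passed the threshold. Those that turned had adjusted p of at least 0.568 and the cause was not tested. Without scaling, Celf1 stood at 0.041, Rbm24 at 0.033 and Srpk3 at 0.019, where the median of all genes moved to 0.07; with quantile normalization Rbm24 stood at 0.0057. With Xist as a covariate Rbm24 stood at 0.0062 and Qk at -0.085. In the 5 libraries without Xist Celf2 stood at -0.0012 and Qk at -0.13. Without knockouts 2 and 4 together Mbnl2 stood at -0.036, Rbm24 at 0.022 and Qk at -0.25. With trends on transcript length, GC content and level removed Celf2 stood at -0.048. With 1 library left out, Qk ran from -0.072 to 0.17, Celf1 from -0.097 to 0.012, Celf2 from -0.024 to 0.084 and Rbm24 from -0.14 to 0.026. The count of all genes passing, 40, was 8 without a filter, 15 among genes averaging 5 scaled FPKM or more, 223 with Xist as a covariate, 3 in the 5 libraries without Xist, 13 without knockouts 2 and 4, and between 2 and 27 with 1 library left out (2 without wildtype 4). The hnRNP genes passing were 0, and 2 with Xist as a covariate. The 6 other lists had 0 under every alternative. Carm1 had a difference between -1.02 and -0.84 with 1 library left out, with an exact permutation p of 0.0571, the smallest that 4 against 3 allows. Replicate numbers are shared between genotypes, and the deviations of same-numbered libraries correlated over genes at -0.432 and -0.194 for replicates 1 and 2 and at 0.349 and 0.194 for replicates 3 and 4. As the sign was not the same in all 4 pairs and not every library correlated best with its own number, the numbers were not taken as pairs; with the replicate block 0 genes passed and Carm1 stood at -0.94 (limma adjusted p = 0.189).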
